A study of Mus musculus with 18 samples.

Results

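The genes described here carry peptides to the cell surface on MHC class I. They are 10 genes: H2-K1, H2-D1, B2m, Tap1, Tap2, Tapbp, Psmb8, Psmb9, Nlrc5 and Erap1. They were found by symbol among the 55450 genes of the count table, each symbol matched 1 row, and all 10 passed the filter on low counts. Their expression was measured by RNA sequencing in 15 mouse mammary tumors and 3 normal mammary glands, with 1 library per sample.

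All samples came from female mice labelled C57Bl/6, and the mouse is the replicate. Ages of the sampled mice at collection were not in the sources used here, so any age difference between groups cannot be told apart from genotype. The 5 B1/P/Rbf tumors arose in Brca1fl/fl/Trp53fl/fl/TgK18GT121Tg/+ mice, the 5 B1/P tumors in Brca1fl/fl/Trp53fl/fl mice and the 5 P/Rbf tumors in Trp53fl/fl/TgK18GT121Tg/+ mice. Floxed Trp53 is thus common to every tumor, and the 3 glands were wild type. Recombination was started by an adenovirus carrying Cre under the CMV promoter, injected through the nipple into the ducts of adult females, so cells of any type that took up the virus could recombine. The TgK18GT121 transgene adds T121, a fragment of the SV40 large T antigen that inactivates pRb, p107 and p130, and the keratin 18 promoter confines it to epithelial cells. The floxed alleles came from FVB;129 stock and were bred into C57Bl/6 J. The tumors were bulk tissue, in which fewer cells of a type and less RNA per cell cannot be told apart.

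MHC class I molecules show peptides made inside the cell to CD8 T cells. The proteasome cuts proteins into peptides, a transporter moves the peptides into the endoplasmic reticulum, an aminopeptidase trims them, and a loading complex places them on a heavy chain bound to beta-2 microglobulin. Interferons raise the transcription of nearly every step, and NLRC5 is the transactivator that drives class I promoters. Tumors of many kinds, those of the breast included, are known to lower parts of this pathway, which makes its level in each tumor of interest.

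By role, H2-K1 and H2-D1 encode the classical heavy chains, and B2m encodes beta-2 microglobulin. Tap1 and Tap2 encode both chains of the peptide transporter, and Tapbp encodes tapasin, which bridges the transporter and the empty heavy chain. Psmb8 and Psmb9 encode the interferon-inducible catalytic subunits of the immunoproteasome, Erap1 encodes the trimming aminopeptidase, and Nlrc5 encodes the transactivator. On the mouse build GRCm38, 7 of the 10 lie in the MHC on chromosome 17: Tapbp at chr17:33915899-33929292, H2-K1 at chr17:33996017-34000347, Psmb9 at chr17:34181987-34187764, Tap1 at chr17:34187553-34197225, Psmb8 at chr17:34197721-34201454, Tap2 at chr17:34203527-34216321 and H2-D1 at chr17:35262730-35267499. The other genes are B2m at chr2:122147686-122153083, Nlrc5 at chr8:94434356-94527272 and Erap1 at chr13:74639568-74693201.

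Promoter sequence is shown because these genes varied together from tumor to tumor, as the values further on show. RefSeq windows on GRCm38.p6, from 250 bases before to 50 bases after a gene's start, were at hand for 8 of the 10 genes, and Tap2 and Nlrc5 were not matched. H2-K1 had 2 windows, of which the first listed was used. Both strands were searched for GGGGA and TCCCC with 1 base of any kind between them (a kappa B palindrome, the core of the class I enhancer), for GAAANNGAA or GAANNGAAA (a pair of interferon-response repeats), for TGACG (the cyclic AMP response element core, the X2 box of class I promoters) and for CCAAT (the Y box, which reads ATTGG on the other strand). Capitals mark the matches in the bases before the start, given 5′ to 3′ on the gene's strand. The H2-K1 stretch is chr17:34000348-34000597 on the minus strand, that of H2-D1 is chr17:35262844-35263093 on the plus strand, and that of B2m is chr2:122147437-122147686 on the plus strand.
H2-K1: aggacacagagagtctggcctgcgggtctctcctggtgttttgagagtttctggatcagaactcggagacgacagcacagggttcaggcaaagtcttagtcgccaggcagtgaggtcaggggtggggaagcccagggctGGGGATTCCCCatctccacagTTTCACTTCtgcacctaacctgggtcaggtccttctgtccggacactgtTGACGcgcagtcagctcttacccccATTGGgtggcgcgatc
H2-D1: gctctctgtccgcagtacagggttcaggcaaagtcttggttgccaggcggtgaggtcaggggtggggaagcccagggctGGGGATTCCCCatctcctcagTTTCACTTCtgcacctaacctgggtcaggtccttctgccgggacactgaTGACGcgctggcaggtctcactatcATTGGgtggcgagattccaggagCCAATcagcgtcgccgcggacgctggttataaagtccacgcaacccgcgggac
B2m: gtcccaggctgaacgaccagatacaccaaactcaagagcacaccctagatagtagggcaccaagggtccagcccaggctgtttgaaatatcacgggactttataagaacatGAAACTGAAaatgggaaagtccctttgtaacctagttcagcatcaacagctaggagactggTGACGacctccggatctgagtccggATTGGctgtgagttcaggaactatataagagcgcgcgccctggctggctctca

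The kappa B palindrome lay in the windows of H2-K1 and H2-D1, whereas 0.0487% of all 32851 promoter windows held it. A pair of interferon-response repeats lay in 4 of the 8 windows, those of H2-K1, H2-D1, B2m and Erap1, against 14.8% of all windows. The TGACG core was in 5 windows (20.8% of all windows) and CCAAT in 6 (37.4% of all windows). In H2-K1, H2-D1 and B2m the TGACG core was followed by ATTGG with 20 bases between them, a spacing read from these 3 genes and then found in 19 windows in all, 0.0578% of the total. Over 239 aligned bases the H2-K1 and H2-D1 windows were 88.3% identical. Tap1 and Psmb9 start on opposite strands beside each other, so that their windows share 275 bases. The 225 bases between both starts, chr17:34187331-34187555 on the strand of Tap1, held 1 CCAAT and 1 TGACG.
Tap1: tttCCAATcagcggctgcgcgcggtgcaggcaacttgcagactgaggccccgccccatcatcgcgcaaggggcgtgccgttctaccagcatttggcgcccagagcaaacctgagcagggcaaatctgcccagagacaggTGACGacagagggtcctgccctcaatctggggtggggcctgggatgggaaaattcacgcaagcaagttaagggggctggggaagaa

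Across the series, total expected counts ran from 27661173 to 37794889 per sample, with a median of 33802255. Levels below are CPM, counts scaled to a common library size after TMM correction. They are not divided by transcript length, so they are compared between samples and not between genes. The targeted genes were read first. Trp53 lay at 6.75 to 24.3 CPM in the 15 tumors and at 54.4 to 71.8 CPM in the glands. Brca1 lay at 44.9 to 116 CPM in P/Rbf tumors, at 21.1 to 45 CPM in B1/P/Rbf tumors, at 8.13 to 27.9 CPM in B1/P tumors and at 4.61 to 5.99 CPM in glands, so B1/P/Rbf tumor 3 reached the P/Rbf range by a narrow margin. Epithelial markers (Epcam, Cdh1, Krt8, Krt18, Cldn3 and Cldn4) summed to 810 CPM or more in every sample. The glands also carried muscle and fat: 4 skeletal muscle markers summed to 20489 to 40205 CPM there and 6 adipocyte markers to 5288 to 7263 CPM, while in tumors the adipocyte sum was at most 98.1 CPM. Skeletal muscle markers summed to at most 20.4 CPM in tumors other than B1/P tumor 5, which had 553 CPM.

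The plainest pattern was a wide spread inside the B1/P group. B1/P tumors 1, 4 and 5 held low levels of nearly all 10 genes. B1/P tumor 3 reached the range of at least 1 other tumor model for all 10. B1/P tumor 2 did so except for Psmb9 (42.9 CPM) and Erap1 (76.5 CPM), where it lay below every B1/P/Rbf and P/Rbf tumor. Among the 15 tumors, all 10 genes of B1/P tumor 1, all 10 of B1/P tumor 4 and 8 of B1/P tumor 5 ranked in the lowest 3 places. Compared with the glands, those tumors lay below every gland for 10, 10 and 9 genes, whereas B1/P tumor 3 lay above every gland for all 10. B1/P tumor 2 was between these, below every gland for 3 genes and above every gland for 6. At the other end, P/Rbf tumor 1 ranked first for 9 genes and second for Tapbp. The highest sample exceeded the lowest by a median of 4.08-fold over the 10 genes in B1/P tumors (3.3-fold to 7.52-fold) and 2.96-fold in P/Rbf tumors (1.67-fold to 7.39-fold). The median was 2.22-fold in B1/P/Rbf tumors and 1.3-fold in the 3 glands. Over the 5225 genes that averaged 50 CPM or more, the same median was 2.24-fold, 2.01-fold, 1.83-fold and 1.17-fold. The 90th percentile of those genes was 5.21-fold in B1/P and 6.22-fold in P/Rbf tumors.

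**Figure D1:**
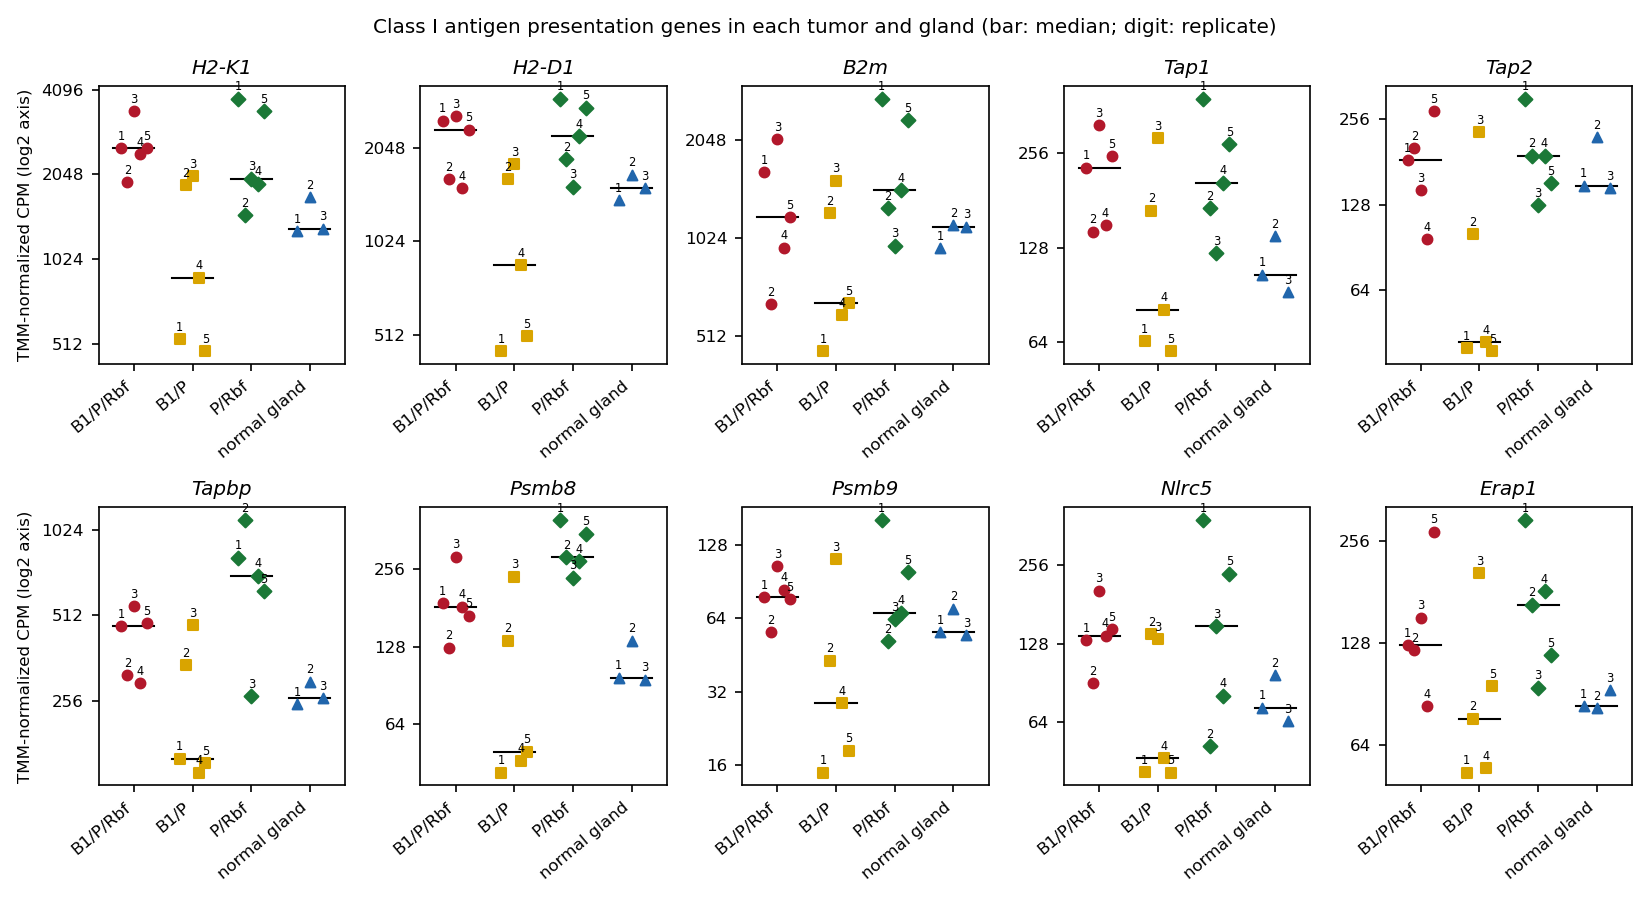
Each panel plots 1 gene, with TMM-normalized CPM on a log2 axis against group; points are single samples, digits are replicate numbers and bars are medians. B1/P tumors 1, 4 and 5 lie at the bottom of most panels, and P/Rbf tumor 1 lies at the top of every panel except that of Tapbp, where P/Rbf tumor 2 reaches 1106 CPM.

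The classical heavy chains came first. H2-K1 stood at 2534, 1922, 3440, 2417 and 2540 CPM in B1/P/Rbf tumors 1 to 5 and at 534, 1880, 2015, 883 and 485 CPM in B1/P tumors 1 to 5. It stood at 3803, 1473, 1978, 1902 and 3429 CPM in P/Rbf tumors 1 to 5 and at 1288, 1700 and 1315 CPM in the glands. Every B1/P/Rbf tumor thus lay above every gland, while 3 B1/P tumors lay below every gland and 2 above. H2-D1 followed a similar order, with 2513, 1630, 2597, 1524 and 2347 CPM in B1/P/Rbf tumors against 453, 1629, 1817, 859 and 507 CPM in B1/P tumors. P/Rbf tumors held 2960, 1884, 1537, 2235 and 2770 CPM and the glands 1388, 1680 and 1519 CPM. The B1/P range overlapped both other tumor groups through B1/P tumors 2 and 3.

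B2m, the invariant light chain, stood at 1626, 641, 2054, 957 and 1183 CPM in B1/P/Rbf tumors 1 to 5, at 461, 1220, 1534, 595 and 647 CPM in B1/P tumors and at 2735, 1265, 969, 1437 and 2351 CPM in P/Rbf tumors. In the glands it stood at 951, 1121 and 1109 CPM. B1/P/Rbf tumor 2 was thus among the lower tumors for B2m, although its H2-K1 exceeded that of every gland. The log2 ratio of H2-K1 to B2m within a sample was chosen after its values were seen. It averaged 1.08 ± 0.40 (SD, n = 5) in B1/P/Rbf tumors and 0.28 ± 0.42 (SD, n = 5) in B1/P tumors, with an exact two-sided permutation p = 0.00794, the smallest that 5 against 5 samples can give. Among 36 tests of 6 such ratios, its Benjamini-Hochberg adjusted value was 0.161, and no ratio had a lower one.

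Both transporter genes were lowest in the same 3 tumors. Tap1 measured 230, 144, 313, 151 and 250 CPM across B1/P/Rbf tumors, 64.5, 168, 285, 81.4 and 60.1 CPM across B1/P tumors, 381, 171, 123, 206 and 273 CPM across P/Rbf tumors and 105, 139 and 92.3 CPM in glands. Tap2 measured 183, 202, 144, 96.6 and 272 CPM across B1/P/Rbf tumors, 40.2, 101, 230, 42.1 and 39.2 CPM across B1/P tumors, 301, 190, 127, 190 and 152 CPM across P/Rbf tumors and 149, 220 and 146 CPM in glands. All 5 B1/P/Rbf tumors therefore exceeded every gland for Tap1, but only B1/P/Rbf tumor 5 did so for Tap2. Within a sample, the mean log2 ratio of Tap1 to Tap2 was -0.61 in glands and 0.66 in B1/P tumors (exact two-sided permutation p = 0.0179, the smallest for 5 against 3, and 0.161 after adjustment over the 36 tests).

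Tapbp measured 468, 314, 551, 295 and 480 CPM across B1/P/Rbf tumors, 160, 341, 472, 143 and 154 CPM across B1/P tumors, 815, 1106, 266, 706 and 622 CPM across P/Rbf tumors and 249, 299 and 261 CPM in glands. P/Rbf tumors 1, 2, 4 and 5 lay above all B1/P tumors, and P/Rbf tumor 3 lay among the glands. Erap1 measured 126, 122, 152, 83.3 and 273 CPM across B1/P/Rbf tumors, 53.1, 76.5, 206, 54.7 and 95.3 CPM across B1/P tumors, 295, 166, 94.6, 182 and 118 CPM across P/Rbf tumors and 83.5, 82.2 and 93.1 CPM in glands. For this aminopeptidase all 5 P/Rbf tumors were above every gland, as for 20.0% of all genes.

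The immunoproteasome subunits spanned wide ranges in B1/P tumors. Psmb8 measured 189, 127, 286, 183 and 169 CPM across B1/P/Rbf tumors, 41.6, 135, 239, 46.3 and 50.2 CPM across B1/P tumors, 396, 285, 237, 275 and 351 CPM across P/Rbf tumors and 96.9, 135 and 95.3 CPM in glands. P/Rbf tumor 3, the lowest of its group, lay just under B1/P tumor 3, so the groups overlapped in that pair only. Psmb9 measured 78.1, 56.2, 105, 84 and 76.9 CPM across B1/P/Rbf tumors, 14.9, 42.9, 112, 28.8 and 18.3 CPM across B1/P tumors, 162, 51.6, 63.5, 67.6 and 99.2 CPM across P/Rbf tumors and 56.2, 70.2 and 54.7 CPM in glands. Its 7.52-fold span in B1/P tumors was the widest of any of the 10 genes in any group.

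Nlrc5 measured 132, 90.4, 204, 137 and 145 CPM across B1/P/Rbf tumors, 41, 139, 133, 46.5 and 40.9 CPM across B1/P tumors, 381, 51.6, 149, 80.6 and 237 CPM across P/Rbf tumors and 72.6, 97 and 64.6 CPM in glands. P/Rbf tumor 2 held Nlrc5 below every gland and at the same time the highest Tapbp of the 18 samples. The transactivator and the loading gene were accordingly the least alike pair: among the 45 pairs of these genes, Pearson's r of log2 CPM after removing group means ran from 0.33 for Tapbp and Nlrc5 to 0.93 for H2-D1 and Tap1, with a median of 0.78. These correlations cover 18 samples whose values share a library and a scaling factor, and they are given as a description.

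The first comparison asked how T121 added to Brca1 and Trp53 loss bears on these genes. By edgeR's quasi-likelihood test on all 19186 genes, none of the 10 was called in B1/P/Rbf against B1/P tumors at an adjusted p (Benjamini-Hochberg) of at most 0.05, where 16.7% of all genes were called. All 10 log2 fold changes were positive, from 0.54 to 1.15 with a median of 0.85, against -0.06 for all genes. An unadjusted p under 0.05 was reached by 4 of them (31.3% of all genes), and DESeq2 called 2 and limma-voom 3, where these tools called 23.3% and 16.0% of all genes. H2-K1 came nearest, at 1.15 (SE 0.39, adjusted p = 0.0507), followed by H2-D1 at 1.01 (SE 0.35, adjusted p = 0.0577). The other values were 0.99 for Tap2, 0.90 for Psmb8, 0.88 for Psmb9, 0.82 for Nlrc5, 0.73 for Tapbp, 0.72 for Tap1 and 0.64 for Erap1. Intervals were wide: the 95% interval of H2-K1 ran from 0.33 to 1.97 and that of B2m, at 0.54, from -0.26 to 1.33. No gene separated the 2 groups without overlap, as 5.00% of all genes did with B1/P/Rbf tumors higher. Without B1/P tumor 3 the test called 7 of the 10 (H2-K1, H2-D1, Tap1, Tap2, Psmb8, Psmb9 and Erap1), where 14.0% of all genes were called. That tumor was the highest of the B1/P group for all 10 genes except Nlrc5, so this omission restates the spread given above. Without B1/P tumor 2 the test called 2, where 18.1% were, and without B1/P tumor 1, 4 or 5 it called 0. Without B1/P/Rbf tumor 3, whose Brca1 level reached that of the lowest P/Rbf tumor, the test called 0, where 13.0% were, and the median was 0.68.

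P/Rbf tumors against B1/P tumors differ both by T121 and by the floxed Brca1 alleles. Here edgeR called 3 genes, all higher in P/Rbf tumors, where 19.2% of all genes were called in either direction and 8.43% were called higher. They were Psmb8 at a log2 fold change of 1.59 (SE 0.42, adjusted p = 0.014), Tapbp at 1.47 (SE 0.38, adjusted p = 0.013) and H2-D1 at 1.11 (SE 0.35, adjusted p = 0.0353), which are 3.02-fold, 2.77-fold and 2.16-fold. For each of the 3, 4 of 5 P/Rbf tumors lay above all B1/P tumors. All 10 values were positive, with a median of 1.10 against -0.05 for all genes, and 8 had an unadjusted p under 0.05 (34.5% of all genes). H2-K1, at 1.12 (SE 0.39), had an adjusted p of 0.0518. The others were at 1.17 for Nlrc5, 1.08 for Tap2, 1.03 for Psmb9, 0.97 for B2m, 0.82 for Erap1 and 0.81 for Tap1. DESeq2 called 5 (26.5% of all genes), and a fit of only these 2 groups called 0 (9.30% of all genes). Without B1/P tumor 3 all but Nlrc5 were called, where 15.4% of all genes were. That tumor was the highest of the B1/P group for all 10 genes except Nlrc5, so this omission restates the spread given above. Leaving out B1/P tumor 1, 4 or 5, or P/Rbf tumor 1, 4 or 5, left only Psmb8 and Tapbp called. H2-K1 joined the 3 calls without B1/P tumor 2, and H2-K1 and Nlrc5 did without P/Rbf tumor 2. Over the alternative analyses, the calls of Psmb8 and Tapbp each held in 16 of 17, and that of H2-D1 held in 10 of 18.

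B1/P/Rbf tumors were then set against P/Rbf tumors, which also carry the transgene but not the floxed Brca1 alleles. Here edgeR called none of the 10, where 0.281% of all genes were called, and none had an unadjusted p under 0.05 (16.1% of all genes). DESeq2 and limma-voom called none either, against 5.53% and 0.136% of all genes. The log2 fold changes ran from -0.74 for Tapbp to 0.03 for H2-K1, with a median of -0.16. Between them lay Psmb8 at -0.70, B2m at -0.44, Nlrc5 at -0.35, Erap1 at -0.18, Psmb9 at -0.15, H2-D1 at -0.10, Tap2 at -0.10 and Tap1 at -0.09. The 95% interval was -0.78 to 0.84 for H2-K1 and -1.55 to 0.16 for Psmb8. The B1/P/Rbf and P/Rbf comparisons above share the same B1/P tumors.

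**Figure D2:**
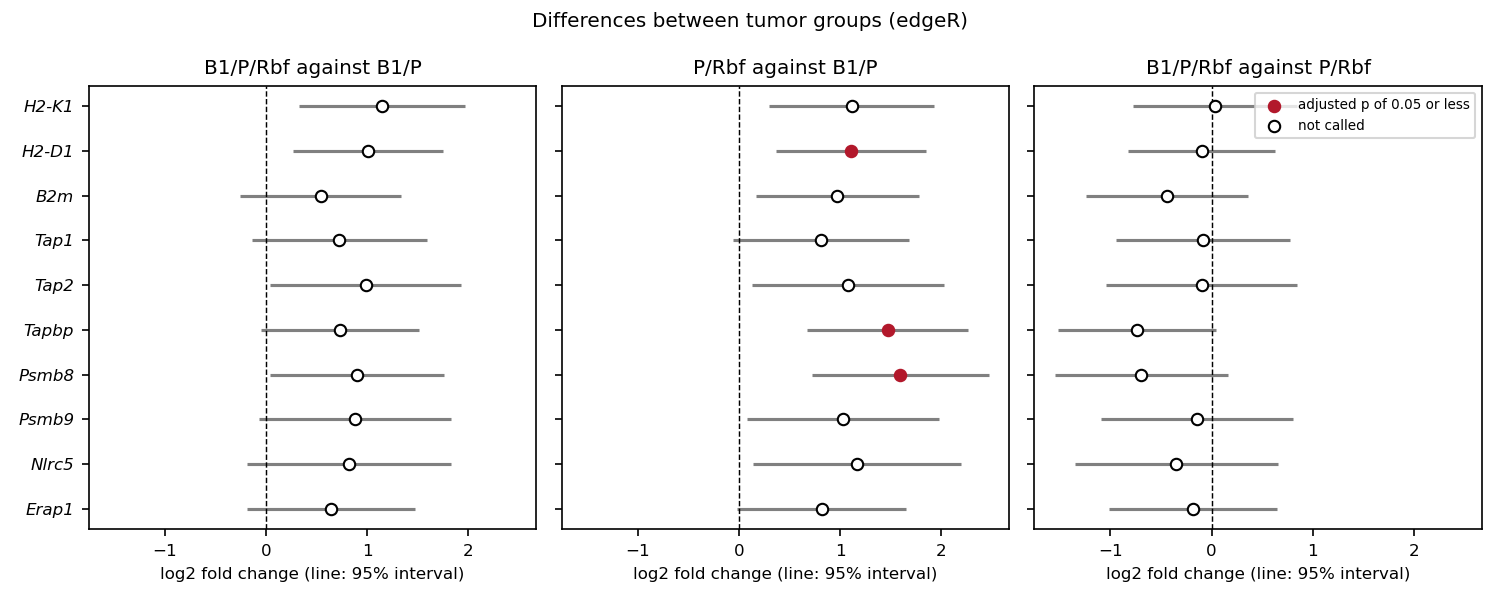
Log2 fold changes of the 10 genes in the 3 tumor pairs, with the 95% interval as a line; filled points have an adjusted p of 0.05 or less by edgeR. All points of the panels against B1/P lie to the right of 0, H2-D1, Tapbp and Psmb8 are filled in P/Rbf against B1/P, and every interval of the last panel crosses 0.

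Libraries may fall into 2 sets that the labels do not name. An earlier analysis of these data inferred them from the fold changes in the study's supplement. They put all B1/P/Rbf tumors with B1/P tumors 1, 2 and 3, and B1/P tumors 4 and 5 with all P/Rbf tumors and glands. Low tumors occurred in both sets. Within the first set, B1/P/Rbf tumors exceeded B1/P tumors by a median of 0.66 in mean log2 CPM (0.33 to 1.00, all 10 positive), and none of the 10 genes separated the groups, where 9.08% of all genes did with B1/P/Rbf higher. Within the second set, P/Rbf tumors exceeded B1/P tumors 4 and 5 by a median of 1.78 (1.13 to 2.66), and 9 of 10 genes separated without overlap, Erap1 being the exception, where 11.8% of all genes did. The B1/P tumors of that set are only 4 and 5, already given above as low in class I, so these values restate that pattern. A fit with a term for the sets gave a median of 0.45 and 0 calls (12.4% of all genes) in B1/P/Rbf against B1/P tumors, and a median of 1.90 and 5 calls (H2-K1, H2-D1, Tap2, Tapbp and Psmb8, against 10.5% of all genes) in P/Rbf against B1/P tumors. For B1/P/Rbf against P/Rbf tumors it gave a median of -1.39 and 0 calls (0.0261% of all genes). B1/P/Rbf tumors share a set with no P/Rbf tumor or gland, so those contrasts pass through the B1/P tumors and lean on their spread.

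Against normal gland, B1/P/Rbf tumors had no gene of the 10 called, where 37.0% of all genes were called, and no unadjusted p under 0.05 (46.3% of all genes). DESeq2 also called 0 (42.3% of all genes), while limma-voom called 2 (40.1%) and a fit of only these groups called 4, Psmb8, Tap1, H2-K1 and Nlrc5 (48.8%). All 10 log2 fold changes were positive with a median of 0.73, and H2-K1 (0.84, SE 0.46, adjusted p = 0.158) and Tap1 (0.95, SE 0.49, adjusted p = 0.136) were above every gland in 5 of 5 tumors, a separation that 23.1% of all genes showed. The remaining values were 0.86 for Nlrc5, 0.81 for Psmb8, 0.81 for Erap1, 0.64 for Tapbp, 0.47 for H2-D1, 0.41 for Psmb9, 0.29 for B2m and 0.06 for Tap2. With the term for the 2 sets the median turned to -0.47. In B1/P tumors 0 were called, where 33.8% of all genes were, with no unadjusted p under 0.05 by edgeR (44.1% of all genes) and 0 calls by DESeq2 (39.6% of all genes). There 3 values were positive, 0.23 for Tap1, 0.17 for Erap1 and 0.04 for Nlrc5, and the median was -0.17. The negative ones were -0.92 for Tap2, -0.54 for H2-D1, -0.48 for Psmb9, -0.31 for H2-K1, -0.25 for B2m, -0.09 for Tapbp and -0.09 for Psmb8. Without B1/P tumor 3, Tap2 and Psmb9 were called lower than gland, where 33.1% of all genes were called, and the median was -0.57. This omission too takes out the highest B1/P tumor for most of these genes, and leaving out any other B1/P tumor gave 0 calls.

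P/Rbf tumors had 2 genes called higher than gland, where 37.7% of all genes were called and 17.4% higher. Psmb8 rose by 1.50 on the log2 scale (SE 0.50, adjusted p = 0.0247) and Tapbp by 1.38 (SE 0.45, adjusted p = 0.0228). Psmb8 and Erap1 were above every gland in all 5 P/Rbf tumors, as 20.0% of all genes were, and Tapbp in 4. The median over the 10 genes was 0.90, and 3 had an unadjusted p under 0.05 (46.8% of all genes). The genes not called were at 1.20 for Nlrc5, 1.04 for Tap1, 0.99 for Erap1, 0.81 for H2-K1, 0.72 for B2m, 0.57 for H2-D1, 0.56 for Psmb9 and 0.16 for Tap2. Leaving out gland 1 or gland 3 removed both calls, and so did a stricter filter (log2 CPM of 6 or more in 6 or more samples). Without TMM correction 4 were called, where the median log2 fold change of all genes was 0.33. Over the alternative analyses, the call of Psmb8 held in 12 of 15 and that of Tapbp in 11 of 15. Cell makeup differed between tumors and glands as given above, and its part in these values was not tested.

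Of 14 class I like and nonclassical genes, 2 were called in B1/P/Rbf against B1/P tumors and 3 in P/Rbf against B1/P tumors, all higher, where 16.7% and 19.2% of all genes were called in either direction. H2-Q2, a heavy chain gene of the Q region, had a log2 fold change of 3.28 (SE 0.52, adjusted p = 0.00088) and 3.13 (SE 0.51, adjusted p = 0.00107) in the 2 comparisons. Its level was low: 15.9 to 29.6 CPM in B1/P/Rbf tumors, 5.05 to 33.7 CPM in P/Rbf tumors and 0.731 to 5.21 CPM in B1/P tumors. H2-Q6 rose by 1.89 (adjusted p = 0.047) and 1.85 (adjusted p = 0.0467), and H2-Q4 rose by 1.48 (adjusted p = 0.0377) in P/Rbf tumors, while in B1/P/Rbf tumors its 1.31 had an adjusted p of 0.0651. The H2-Q2 calls held in 16 of 16 alternative analyses, whereas those of H2-Q6 held in 5 of 17 in each comparison and that of H2-Q4 in 9 of 17. H2-Q7, which encodes Qa-2, spanned 20.9 to 709 CPM in B1/P tumors against 621 to 1308 CPM in B1/P/Rbf tumors, and 1.48 was not called (adjusted p = 0.132). H2-T23, the gene of the Qa-1 ligand of NK cell receptors, had 76.3 to 388 CPM in B1/P tumors, 100 to 290 CPM in B1/P/Rbf tumors and 96.6 to 911 CPM in P/Rbf tumors. Its log2 fold change was 0.14 (adjusted p = 0.89) in B1/P/Rbf and 1.37 (adjusted p = 0.0793) in P/Rbf tumors, each against B1/P, so it was called in neither.

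These genes share sequence, which bears on how reads were divided. Of the 50-base words of the H2-K1 transcript, 8.8% also occur in other genes, and of those of H2-D1 14.3%. The top sharers were H2-D1, H2-Q1 and H2-T23 for H2-K1, and H2-Q1, H2-Q7 and H2-Q6 for H2-D1. Genes reported separately here thus share words with one another. RSEM gave H2-K1 a fractional count in 18 of 18 samples and H2-D1 in 17, while B2m, Psmb8, Psmb9, Nlrc5 and Erap1 had whole counts in all samples. Tapbp was fractional in 18 samples with 2.0% of its words shared. The values of single H2 genes are uncertain for this reason, by an amount that was not measured. Exons also overlap those of genes on the opposite strand: Tapbp shares 904 bases, 24.9% of its merged exons, with Gm19412, Psmb8 shares 498 bases (14.7%) with Gm20496, Tap2 shares 533 bases (14.1%) with Gm15821 and 165 with Gm20496, Erap1 shares 834 bases (11.5%) with Cast, Psmb9 shares 212 bases (5.8%) with Tap1, and Nlrc5 shares 78 bases (0.9%) with 9330175E14Rik. On its own strand Tapbp shares 149 bases (4.1%) with Zbtb22. The libraries were stranded, but whether counting used the strand is not given in the sources used here.

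Among 5 genes of the immunoproteasome and its activator, 1 was called higher in B1/P/Rbf and 3 in P/Rbf tumors, each against B1/P tumors, where 16.7% and 19.2% of all genes were called in either direction and 8.43% higher in P/Rbf tumors. Psme1 and Psme2, the subunits of the interferon-inducible proteasome cap PA28, had log2 fold changes of 1.53 (SE 0.30, adjusted p = 0.0033) and 1.90 (SE 0.31, adjusted p = 0.00103) in P/Rbf tumors, and for both genes the groups did not overlap (3.74% of all genes did so with P/Rbf tumors higher). In B1/P/Rbf tumors Psme1 rose by 0.92 (adjusted p = 0.044). Pomp, a proteasome assembly factor on the same list, lay the other way at -0.96 (adjusted p = 0.0674) and -0.45 (adjusted p = 0.374), and was named after its values were seen. Psmb10, the remaining inducible catalytic subunit, rose by 1.48 (adjusted p = 0.0411) in P/Rbf tumors, although its levels of 187, 28, 52.7, 31 and 93 CPM overlapped the 12.9 to 49.7 CPM of B1/P tumors. Both P/Rbf calls of PA28 subunits held in 17 of 17 alternative analyses, that of Psme1 in B1/P/Rbf tumors in 7 of 17 and that of Psmb10 in 7 of 16. The constitutive counterparts were not flat either. In P/Rbf against B1/P tumors 2 of 3 were called higher (8.43% of all genes), Psmb5 at 0.70 (adjusted p = 0.0341) and Psmb6 at 0.84 (adjusted p = 0.00509), which held in 6 and 17 of 17 alternatives. The mean log2 ratio of Psmb8 to Psmb5 was 1.21 in B1/P/Rbf tumors, 1.35 in P/Rbf tumors, 0.15 in B1/P tumors and -0.23 in glands, and in B1/P tumors it ranged from -1.22 in tumor 5 to 1.72 in tumor 3. Against B1/P tumors neither difference passed (exact two-sided permutation p = 0.0952 and 0.0873, adjusted values 0.245 and 0.242). Psmb9 to Psmb6 averaged -0.50, -0.81, -1.27 and -1.22 in the same order of groups, and Psmb10 to Psmb7 averaged -1.25, -1.22, -1.98 and -1.28, and no difference between groups passed for these either.

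A list of 8 genes of glycoprotein folding and peptide loading or trimming, such as Calr, Canx and Pdia3, had 0 calls by edgeR in each of the 3 tumor pairs. In B1/P/Rbf against B1/P, P/Rbf against B1/P and B1/P/Rbf against P/Rbf tumors, 16.7%, 19.2% and 0.281% of all genes were called. An unadjusted p under 0.05 was reached by 0, 2 and 1 of the 8 genes, where 31.3%, 34.5% and 16.1% of all genes reached it. Their median log2 fold change was 0.31 in B1/P/Rbf and 0.10 in P/Rbf tumors, each against B1/P. Calr lay at 529 to 764 CPM in B1/P tumors and at 569 to 1067 CPM in B1/P/Rbf tumors. Of 19 genes of other function in the same chromosomal region, 0 were called in each tumor pair by edgeR, against the same shares of all genes. An unadjusted p under 0.05 was reached by 1, 3 and 0 of the 19, and their medians were 0.10, 0.08 and 0.04. Abhd16a, named after its values were seen, separated B1/P/Rbf (higher) from B1/P tumors without overlap, at a log2 fold change of 0.57 (SE 0.22, adjusted p = 0.0798), a separation that 5.00% of all genes showed.

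Among 12 transcription regulators of class I genes, 1 was called in B1/P/Rbf and 2 in P/Rbf tumors, each against B1/P tumors, namely Rfxank in both and Irf1 in P/Rbf tumors, where 16.7% and 19.2% of all genes were called. The Irf1 call held in 17 of 17 alternative analyses, and those of Rfxank in 13 and 14 of 16. Irf1, an interferon-induced activator, had 516, 337, 125, 200 and 249 CPM in P/Rbf tumors and 53.1, 139, 113, 64.9 and 53.3 CPM in B1/P tumors. The difference of 1.75 on the log2 scale (SE 0.36) had an adjusted p of 0.00387, and 4 of 5 P/Rbf tumors lay above all B1/P tumors. In B1/P/Rbf tumors, at 105 to 196 CPM, the value of 0.67 was not called (adjusted p = 0.202). Rfxank, a subunit of the RFX complex that binds the X box, fell by 0.73 (SE 0.21, adjusted p = 0.0251) in B1/P/Rbf and by 0.77 (SE 0.21, adjusted p = 0.0178) in P/Rbf tumors. It lay at 24.2 to 34.3 CPM in B1/P tumors, above all 10 tumors with the transgene, where it was at most 19.7 CPM. Such a separation with the first group lower was found for 5.48% of all genes in B1/P/Rbf against B1/P tumors and for 5.11% in P/Rbf against B1/P tumors. Rfx5 overlapped among the tumor groups, at 29.9 to 43.4 CPM in B1/P, 39.3 to 62 CPM in B1/P/Rbf and 31.7 to 87.2 CPM in P/Rbf tumors. Ifng was at 0.316 CPM or less in all 18 samples.

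Interferon-response genes and class I genes were high and low in the same tumors in most cases. The summed CPM of 26 such genes was 340, 2981, 2983, 450 and 885 in B1/P tumors 1 to 5, so the 3 tumors low in class I were also the low ones here. It was 3361, 1298, 3320, 808 and 3210 in B1/P/Rbf tumors, 7044, 3930, 675, 3358 and 4080 in P/Rbf tumors and 895, 966 and 877 in glands. B1/P/Rbf tumor 4 and P/Rbf tumor 3 had sums below those of all 3 glands. They also had the lowest placed class I genes of their groups, with median ranks of 10.5 and 10.0 among the 15 tumors, although 5 and 4 of the 10 genes still lay above every gland, H2-K1 among them at 2417 and 1978 CPM. In B1/P/Rbf against B1/P tumors 1 of the 26 was called, Usp18 at 2.52 (adjusted p = 0.0198), and in P/Rbf against B1/P tumors 1 was called, Isg15 at 2.12 (adjusted p = 0.0436), where 16.7% and 19.2% of all genes were called. The Usp18 call held in 15 of 17 alternative analyses and that of Isg15 in 6 of 17. The median over the 26 was 0.46 and 1.19.

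**Figure D3:**
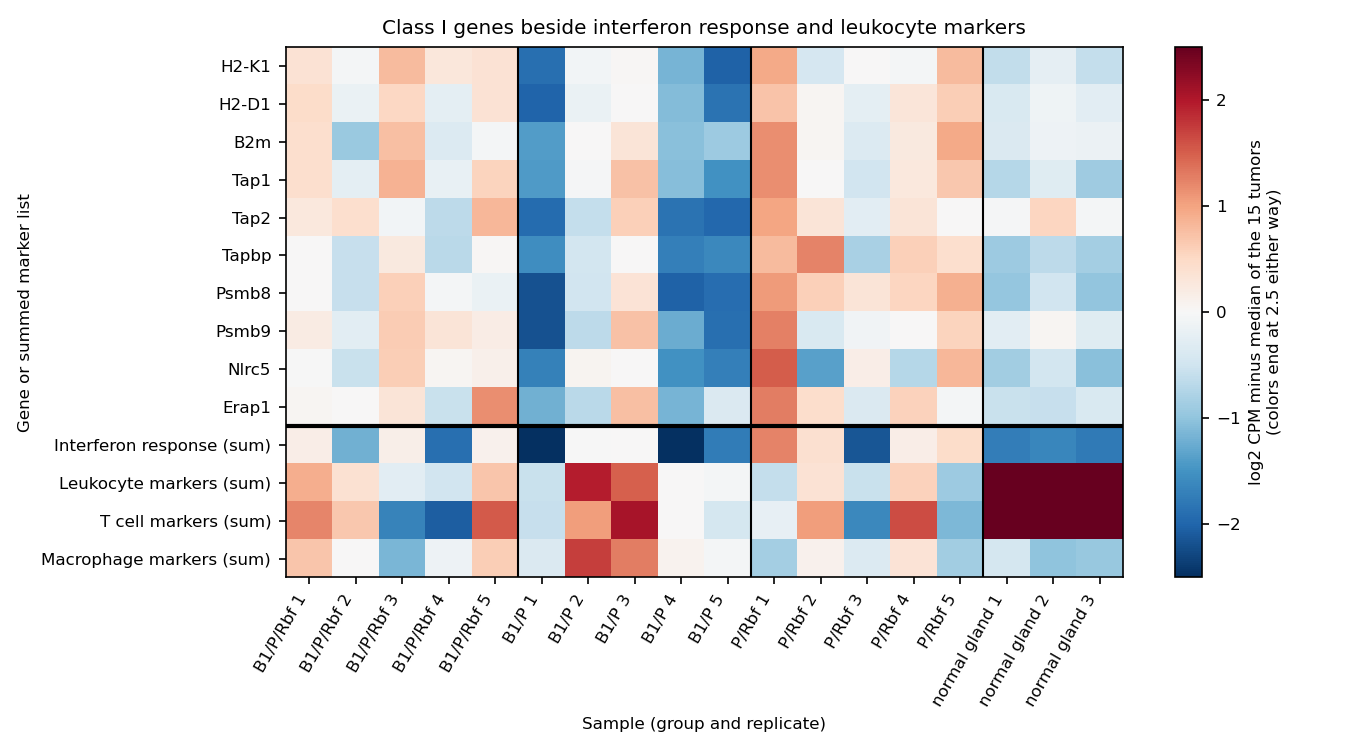
Rows are the 10 genes and 4 summed marker lists, columns are the 18 samples, and color is log2 CPM minus the median of the 15 tumors. The 3 blue columns among the class I rows are B1/P tumors 1, 4 and 5, which are also blue for the interferon response, while the leukocyte and T cell rows are darkest in the glands.

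Leukocytes express class I genes as well, so their markers are set beside these values. Summed CPM of 5 pan-leukocyte markers (Ptprc, Coro1a, Laptm5, Cd52 and Cd53) was 95.5, 549, 397, 140 and 136 in B1/P tumors 1 to 5, 261, 183, 117, 100 and 226 in B1/P/Rbf tumors, 92.6, 181, 95.6, 210 and 75 in P/Rbf tumors and 843, 1125 and 799 in glands. B1/P tumors 2 and 3 had the highest sums of all tumors. For most class I genes they lay above B1/P tumors 1, 4 and 5. Among all tumors their median class I ranks were 10.5 and 5.5, with rank 1 the highest, so B1/P tumor 2 was high only within its group. B1/P tumor 2 also had the highest sum of 7 macrophage markers (1432 CPM, 338 CPM at the lowest of the group). P/Rbf tumors 1 and 5, with the most H2-K1 among P/Rbf tumors, had the lowest sums of that group. No marker of the list was at 0 in every sample, and T cell markers, 8 genes, summed to at most 43.4 CPM in tumors against 279 to 422 CPM in glands. Cd8a was at 7.76 CPM or less in tumors and at 54.7 to 83.9 CPM in glands. Epithelial markers, 6 genes, had lower sums in B1/P tumors (810 to 2435 CPM) than in B1/P/Rbf (2874 to 5535 CPM) and P/Rbf tumors (4339 to 8568 CPM) without overlap. In B1/P/Rbf against B1/P tumors 5 of the 6 were above 0, from -0.32 to 2.12. There Cdh1, Krt18 and Cldn4 were called higher, where 16.7% of all genes were called. In P/Rbf against B1/P tumors 6 were above 0, with a median of 1.49. All but 1 of them, namely Cdh1, Krt18, Krt8, Epcam and Cldn4, were called higher (8.43% of all genes). Fibroblast markers, 6 genes, summed to 2446, 12643, 5787, 2838 and 2813 CPM in B1/P tumors 1 to 5. Their sums were 800 to 4638 CPM in B1/P/Rbf and 1211 to 3934 CPM in P/Rbf tumors. In P/Rbf against B1/P tumors 5 of the 6 were below 0, with a median of -1.04. There 2, Col3a1 and Pdgfra, were called lower, where 19.2% of all genes were called in either direction. In B1/P/Rbf against B1/P tumors 1 of the 6 was above 0, the median was -1.45 and 0 were called (16.7% of all genes). An unadjusted p under 0.05 was reached by 4 there and by 2 in P/Rbf tumors (31.3% and 34.5% of all genes). All 7 macrophage markers were below 0 in P/Rbf against B1/P tumors, with a median of -0.97. Of these, 6 had an unadjusted p under 0.05 (34.5% of all genes). Mrc1 alone was called, at -2.39 (SE 0.68, adjusted p = 0.0223), where 19.2% of all genes were called. The macrophage median was -0.58 in B1/P/Rbf against B1/P tumors. There 0 were called by edgeR (16.7% of all genes) and 0 had an unadjusted p under 0.05 (31.3% of all genes). NK and cytotoxic markers, 7 genes, summed to 1.27 to 21.7 CPM in B1/P, 2.97 to 66 CPM in B1/P/Rbf and 2.61 to 50.2 CPM in P/Rbf tumors. Of the 7, 3 were above 0 on the log2 fold change scale for B1/P/Rbf against B1/P tumors, with a median of -0.03, and 7 for P/Rbf against B1/P tumors, with a median of 0.99. Gzma alone was called, where 16.7% and 19.2% of all genes were called in the 2 comparisons. It was higher than in B1/P tumors both in B1/P/Rbf (4.83, SE 1.13, adjusted p = 0.00842) and in P/Rbf tumors (3.63, SE 1.07, adjusted p = 0.0261). The part of these cell types in the class I values was not tested.

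**Figure D4:**
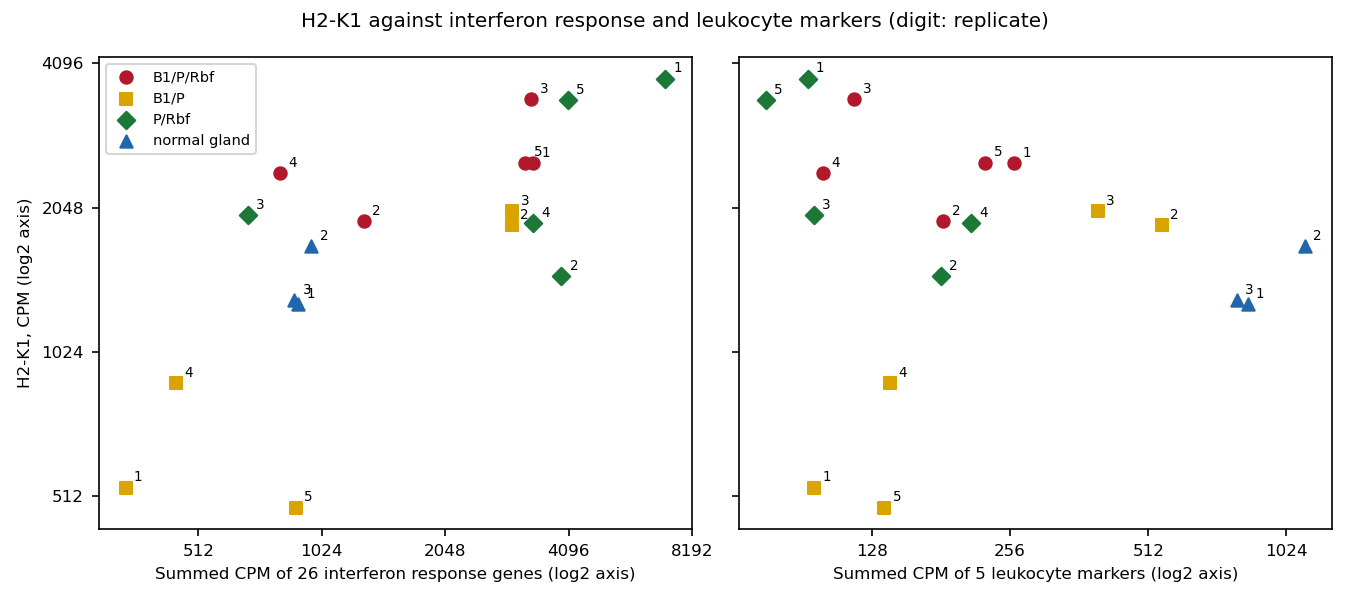
H2-K1 in CPM against the summed CPM of 26 interferon response genes (left) and of 5 leukocyte markers (right), with log2 axes; each point is a sample, colored by group, and digits are replicates. On the right, P/Rbf tumors 1 and 5 combine H2-K1 of 3803 and 3429 CPM with leukocyte sums of 92.6 and 75 CPM, while the glands have the highest leukocyte sums.

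Outside the 10 genes, the transcripts most like them were sought among the 12580 genes that averaged 5 CPM or more. Likeness was Pearson's r, over 18 samples, between a gene's log2 CPM after removing group means and the mean scaled deviation of the 10 genes. The closest were Sp110 (0.92), H2-T22 (0.92), Oas1b (0.91), Dhx58 (0.91), H2-T10 (0.91), Mitd1 (0.91), H2-Q4 (0.91) and Idnk (0.90). Oas1b, an oligoadenylate synthetase family gene, and Dhx58, which encodes the RNA sensor LGP2, are interferon-induced, while H2-T22, H2-T10 and H2-Q4 are class I genes of the T and Q regions. The mean scaled deviation itself was highest in B1/P tumor 3 (2.10), P/Rbf tumor 1 (1.20) and B1/P tumor 2 (1.03), and lowest in B1/P tumor 1 (-1.34) and B1/P tumor 5 (-1.05), so the B1/P tumors weigh most in this ranking. Cd274, which encodes the interferon-induced checkpoint ligand PD-L1, had 10.6, 71.4, 26.1, 5.62 and 7.09 CPM in B1/P tumors 1 to 5 and 27.4 to 32.8 CPM in glands. It had 11.4 CPM in B1/P/Rbf tumor 4 and 7.67 CPM in P/Rbf tumor 3, the lowest of their groups, so low values were not limited to B1/P tumors 1, 4 and 5.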

How the data were processed

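The authors homogenized tissue in TRIzol, made stranded mRNA libraries, pooled the 18 samples, sequenced read pairs, trimmed them with cutadapt 1.18 and quantified genes with RSEM 1.3.0. They deposited RSEM expected counts for 55450 genes, not normalized, of which 5.61% of values are not whole because reads that match several genes are divided. The methods name a human reference, whereas all 55450 identifiers are those of GENCODE M21 on mouse GRCm38. For this report counts were rounded and fitted in R 4.3.3 with edgeR 4.0.16 (TMM, filterByExpr with a minimum count of 10, glmQLFTest), with 1 fit of all 18 samples and 6 contrasts. P-values were adjusted over 19186 genes, and intervals are at 95%. Log2 CPM used a prior count of 2. Alternatives were DESeq2 1.42.0, no filter (32772 genes), a stricter filter (4549 genes), limma 3.58.1 (voom after quantile normalization), no TMM correction, only the groups compared, a term for 2 library sets, H2-K1 and H2-D1 summed, and leaving out each sample; values within each set were computed once the data had been seen. The fits were tested on simulated data. All 10 genes are named in every comparison; partner genes are those of a fixed list or the called members of each list with the largest changes. The genes and lists were chosen with earlier results of these data known. Motif searches and figures used Python 3.11.15.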

Additional observations from a re-analysis of the deposited data

How the results depend on the processing

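Counts of class I genes called moved with the processing. As analysed, edgeR called 0 of the 10 in B1/P/Rbf against B1/P, 3 of the 10 in P/Rbf against B1/P, 0 of the 10 in B1/P/Rbf against P/Rbf, 0 of the 10 in B1/P/Rbf against normal gland, 0 of the 10 in B1/P against normal gland and 2 of the 10 in P/Rbf against normal gland. With DESeq2, the number called of the 10 was 2 in B1/P/Rbf against B1/P and 5 in P/Rbf against B1/P, and the number called of all genes was 1026 in B1/P/Rbf against P/Rbf. With limma-voom after quantile normalization, the number called of the 10 was 3 in B1/P/Rbf against B1/P and 2 in B1/P/Rbf against normal gland, and the number called of all genes was 26 in B1/P/Rbf against P/Rbf. It turned the sign of log2 fold changes in B1/P/Rbf against P/Rbf H2-D1 (0.07), Tap1 (0.07), Tap2 (0.00), Psmb9 (0.06) and Nlrc5 (0.06), in B1/P against normal gland B2m (0.05), Tap1 (-0.04), Nlrc5 (-0.19) and Erap1 (-0.04), in B1/P/Rbf against normal gland Tap2 (-0.01), in P/Rbf against normal gland Tap2 (-0.01). With library sizes without TMM, the number called of the 10 was 1 in B1/P/Rbf against B1/P, 2 in B1/P/Rbf against normal gland and 4 in P/Rbf against normal gland. It turned the sign of log2 fold changes in B1/P against normal gland H2-K1 (0.05), B2m (0.11), Tapbp (0.27) and Psmb8 (0.27), in B1/P/Rbf against P/Rbf Tap1 (0.01) and Tap2 (0.02). With the stricter filter, a log2 CPM of 6 or more in 6 or more samples, the number called of the 10 was 1 in B1/P/Rbf against B1/P and 0 in P/Rbf against normal gland, and the number called of all genes was 886 in B1/P/Rbf against B1/P, 867 in P/Rbf against B1/P, 3 in B1/P/Rbf against P/Rbf, 1763 in B1/P/Rbf against normal gland, 1601 in B1/P against normal gland and 1668 in P/Rbf against normal gland. It turned the sign of log2 fold changes in B1/P/Rbf against P/Rbf H2-D1 (0.01), Tap1 (0.03) and Tap2 (0.03), in B1/P/Rbf against normal gland B2m (-0.01) and Tap2 (-0.21), in B1/P against normal gland Tap1 (-0.01), Nlrc5 (-0.21) and Erap1 (-0.08), in P/Rbf against normal gland Tap2 (-0.24). With a fit of only the groups compared, the number called of the 10 was 0 in P/Rbf against B1/P and 4 in B1/P/Rbf against normal gland, and the number called of all genes was 2039 in B1/P/Rbf against B1/P, 1507 in P/Rbf against B1/P and 1 in B1/P/Rbf against P/Rbf. With the term for the 2 library sets, the number called of the 10 was 5 in P/Rbf against B1/P and 1 in B1/P against normal gland, and the number called of all genes was 2008 in P/Rbf against B1/P, 5 in B1/P/Rbf against P/Rbf and 3879 in B1/P/Rbf against normal gland. It turned the sign of log2 fold changes in B1/P/Rbf against P/Rbf H2-K1 (-1.08), in B1/P/Rbf against normal gland H2-K1 (-0.27), H2-D1 (-0.45), B2m (-0.50), Tap1 (-0.33), Tap2 (-1.55), Tapbp (-0.49), Psmb8 (-0.71), Psmb9 (-0.86) and Nlrc5 (-0.40), in B1/P against normal gland Tap1 (-0.67), Nlrc5 (-0.84) and Erap1 (-0.20). With H2-K1 and H2-D1 summed, the log2 fold change changed sign in B1/P/Rbf against P/Rbf H2-K1 (-0.03). Leaving out each sample in turn, the number called of the 10 ran from 0 to 7 in B1/P/Rbf against B1/P, 2 to 9 in P/Rbf against B1/P, 0 to 2 in B1/P against normal gland and 0 to 2 in P/Rbf against normal gland, and that of all genes from 9 to 131 in B1/P/Rbf against P/Rbf and 4320 to 6435 in B1/P against normal gland. The same omissions turned the sign of log2 fold changes near 0: in B1/P/Rbf against P/Rbf H2-K1 from -0.11 to 0.21, Tap1 from -0.25 to 0.15, Tap2 from -0.30 to 0.11, Psmb9 from -0.29 to 0.17, Nlrc5 from -0.58 to 0.11 and Erap1 from -0.50 to 0.09, in B1/P against normal gland Tap1 from -0.26 to 0.44, Tapbp from -0.43 to 0.06, Psmb8 from -0.67 to 0.11, Nlrc5 from -0.25 to 0.25 and Erap1 from -0.30 to 0.33, in B1/P/Rbf against normal gland Tap2 from -0.14 to 0.35. The cause was not tested, except that the fit of only the groups compared has fewer samples and the stricter filter tests 4549 genes. No value of the 10 genes reversed against B1/P tumors in either Rbf model. Without TMM the median log2 fold change of all genes against gland was 0.42 for B1/P/Rbf, 0.47 for B1/P and 0.33 for P/Rbf tumors, and the values above without TMM carry that shift. The lowest count of any of the 10 genes in any sample was 469. No paired analysis was possible because the labels give no replicate numbers that tie samples of different groups.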
